A study of Mus musculus with 12 samples.

Results

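The comparison set 3 samples of brainstem progenitors that received *ACVR1* R206H against 3 that received *ACVR1* WT, both without H3.1K27M. These are 6 of the 12 samples sequenced, chosen by their labels alone, and the other 6 carried H3.1K27M as well. All of them came from C57BL/6 mice of the genotype Nestin TVA with p53 floxed, at an age the labels give as P3 to P5. The progenitors grew without serum as neurospheres, with EGF and FGF2, and were infected with RCAS vectors that carry human *ACVR1*, either wild type or with the R206H substitution. An RCAS virus enters only cells that carry its receptor Tv-a, here expressed from the nestin promoter, so the vectors reached nestin-positive cells of a mixed culture. The labels name no Cre recombinase in these samples, and they do not tie a replicate number to a litter or a culture, so that p values measure the spread between these samples, part of which may be technical. Each library is a bulk sample, in which fewer cells of a type and less RNA per cell cannot be told apart.

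*ACVR1* encodes ALK2, a type I receptor for bone morphogenetic proteins (BMPs). A ligand brings type I and type II receptors together, the type II kinase phosphorylates the GS domain of the type I receptor, and the activated kinase phosphorylates SMAD1, SMAD5 and SMAD8, which enter the nucleus with SMAD4 and raise target genes such as the *Id* family. R206H replaces an arginine at the end of the GS domain with histidine and makes the receptor leaky and responsive to activin. In neural progenitors BMP signaling is known for favoring astrocyte over oligodendrocyte fate and for slowing division, and ID proteins hold back the bHLH factors that drive differentiation.

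The stretch of the mouse gene that holds the altered residue is shown because the reads of all samples were counted on mouse genes, and the vectors carry the human form. It is codons 202 to 210 of *Acvr1*, from the GENCODE M21 transcripts (mm10, minus strand), with the codon for the altered arginine in capitals. The 4 transcripts with the full reading frame of 509 codons hold the same letters.
Acvr1: agaacggtggctCGCcagataaccctg

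*Acvr1* itself (ENSMUSG00000026836, chromosome 2, positions 58388644 to 58567157 of mm10) was read first, as a check of the labels. With *ACVR1* WT it had 52.99, 45.8 and 52.1 CPM (read counts scaled to a common library size with TMM factors), and with *ACVR1* R206H 113, 81.5 and 85.3. All samples with the mutant receptor lay above all samples with the wild-type one, by a log2 fold change of 0.89 (standard error 0.14). Both groups carry a vector, and reads of the human transcript that align to the mouse gene cannot be told apart from those of the mouse transcript. The mouse count therefore does not show which form was expressed.

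The counts of the 6 samples summed to between 19315020 and 21397108, over 22473 to 22904 genes with a count, so the libraries were alike in depth. Pairs within a group differed by at least 5 in chi-square per degree of freedom, and none was a repeat of another. *Nes*, which encodes nestin, was counted at 403, 130 and 72.1 CPM with *ACVR1* WT and at 274, 234 and 251.5 with *ACVR1* R206H, and *Sox2*, a transcription factor of neural stem cells, at between 325 and 372 CPM in every sample. Markers of endothelium (7.43 to 17.4 CPM summed over 10 genes) and of red cells (0.242 to 0.747 CPM over 6 genes) were near 0, those of pericytes and fibroblasts summed to 85.8 to 124.8 CPM over 10 genes, of which *Cspg4*, also a gene of oligodendrocyte precursors, made up 50.3 to 94.9 CPM, and those of ependyma to between 34.1 and 63.0 CPM over 8 genes.

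*Acvr1*, the BMP target genes *Id1*, *Atoh8* and *Fst*, the STAT3 signaling genes *A2m* and *Socs3* and 19 other genes were higher with *ACVR1* R206H, and *Elfn2* was lower, when the counts were tested with DESeq2. It called 26 of the 15066 genes tested (0.173%) at an adjusted p under 0.05, of which 25 were higher (0.166%) and 1 was lower (0.00664%). In all 26 the 3 mutant samples lay on one side of the 3 wild-type samples. The main test, edgeR's quasi-likelihood F test, called 0 genes (0%), with a smallest adjusted p of 0.94, and 534 genes (3.54%) had an unadjusted p under 0.05, 342 of them higher (2.27%) and 192 lower (1.27%). The smallest p that an exact permutation test of 3 samples against 3 allows for a single gene is 0.1 (both sides). Of all genes tested, 1395 (9.26%) had groups that did not overlap, 723 of them higher (4.8%) and 672 lower (4.46%) with the mutant receptor. The 723 higher genes differed more, with a median log2 fold change of 0.34 and 59 above 1, than the 672 lower ones, with a median of -0.16 and 9 beyond -1. Of the 723 and 672, 325 and 142 were among the 534.

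Among BMP target genes, *Id1*, *Atoh8* and the antagonist gene *Fst* were called higher. Of the 17 tested of 18 listed, 13 had a positive log2 fold change and 4 a negative one, with a median of 0.35 against -0.013 over all genes (0.61 with the cell cycle mean as a covariate). DESeq2 called 3 higher (0.166% of all genes) and 0 lower, and edgeR 0, with 6 at an unadjusted p under 0.05. The groups did not overlap for 9, of which 8 were higher (4.8% of all genes) and 1 was lower (4.46%). The summed level was 476, 605 and 717 CPM with *ACVR1* WT and 761, 741 and 732 with *ACVR1* R206H.

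*Id1*, which encodes an inhibitor of bHLH factors (ENSMUSG00000042745, chromosome 2, positions 152736251 to 152737410), had 12.4, 11.8 and 21.7 CPM with *ACVR1* WT and 40.2, 34.02 and 32.2 with *ACVR1* R206H. Wild-type replicate 3 stood above the other 2 of its group, and the lowest mutant sample was 1.48 times the highest wild-type one. The log2 fold change was 1.21 (standard error 0.25, DESeq2 adjusted p = 0.0077). *Id3* had 71.2, 88.1 and 121 CPM against 159.5, 138 and 151, and *Id2* 155, 189 and 241 against 261, 249.5 and 259.5. In both the groups did not overlap, but wild-type replicate 3 came close to the lowest mutant sample for *Id2*. Neither *Id3* nor *Id2* was called by edgeR or DESeq2, with log2 fold changes of 0.67 (standard error 0.19) and 0.40 (standard error 0.16). *Id4* differed from its family. Its wild-type samples spanned 14.6, 64.5 and 88.6 CPM, and the mutant samples, at 42.5, 53.8 and 36.1, all lay between replicate 1 and the other 2.

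*Atoh8*, a bHLH transcription factor gene (ENSMUSG00000037621, chromosome 6, positions 72206177 to 72235577), had 1.13, 2.31 and 1.79 CPM with *ACVR1* WT and 5.88, 5.61 and 5.49 with *ACVR1* R206H. The mutant samples were close to each other, and the lowest was 2.38 times the highest wild-type one, a difference of 1.70 on the log2 scale (standard error 0.26, DESeq2 adjusted p = 7.2e-05). *Fst*, which encodes follistatin, a secreted protein that binds activins and BMPs (chromosome 13, positions 114452290 to 114458951), had 3.098, 1.95 and 2.08 CPM against 6.43, 5.40 and 5.97, with a log2 fold change of 1.32 (standard error 0.22, DESeq2 adjusted p = 0.0018). Both extracellular and intracellular inhibitors were among the target genes whose groups stood apart. Named after their values were seen, *Nog*, which encodes the BMP antagonist noggin, had 0.939, 1.95 and 2.27 CPM against 3.79, 3.76 and 3.03, and the inhibitory SMAD gene *Smad7* 3.61, 5.28 and 4.88 against 5.83, 6.12 and 5.59. *Smad9*, which encodes SMAD8, had 4.88, 8.10 and 12.03 CPM against 15.7, 13.1 and 13.0. The only list member that stood apart in the other direction was *Pmepa1*, an inhibitor of TGF-beta signaling, at 59.6, 74.9 and 60.4 CPM against 50.3, 57.4 and 58.6.

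Of the receptors and SMADs, 16 of 18 were tested, with a median log2 fold change of 0.071 (0.15 without wild-type replicate 1), and DESeq2 called *Acvr1* alone. The groups stood apart for 3, all higher (4.8% of all genes). Besides *Acvr1* these were *Bmpr1a*, another BMP type I receptor gene, at 302, 333 and 379.6 CPM against 433, 405 and 397, and *Tgfbr3*, the gene of the co-receptor betaglycan, at 4.27, 3.79 and 4.203 against 5.48, 4.73 and 4.96. *Bmpr1a* had a log2 fold change of 0.28 (standard error 0.10) and was not called by edgeR or DESeq2.

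The genes of STAT3 signaling included the call with the smallest p, *A2m*. All 22 listed were tested, 17 with a positive and 5 with a negative log2 fold change (median 0.14, and 0.22 with the cell cycle mean as a covariate). DESeq2 called 2, both higher (0.166% of all genes), and edgeR 0, with 4 at an unadjusted p under 0.05. The groups stood apart for 5, all higher (4.8% of all genes). *A2m*, the gene of the protease inhibitor alpha-2-macroglobulin (ENSMUSG00000030111, chromosome 6, positions 121635376 to 121679227), had 102, 95.9 and 87.5 CPM with *ACVR1* WT and 167, 155 and 186 with *ACVR1* R206H. The groups were well apart beside a narrow spread in each, with a log2 fold change of 0.84 (standard error 0.093, DESeq2 adjusted p = 2.2e-08). *Socs3*, a feedback inhibitor of JAK/STAT signaling (ENSMUSG00000053113, chromosome 11, positions 117966079 to 117970047), had 28.2, 23.3 and 19.8 CPM against 38.6, 38.1 and 45.5. Its lowest mutant sample was 1.35 times the highest wild-type sample, a difference of 0.78 on the log2 scale (standard error 0.15, DESeq2 adjusted p = 0.0092). The other 3 that stood apart were *Junb*, an AP-1 subunit (10.6, 9.58 and 10.5 CPM against 14.2, 16.2 and 21.1), *Bcl3*, an atypical inhibitor of NF-kappaB (1.13, 0.922 and 1.11 against 1.79, 1.39 and 2.94), and, named after its value was seen, the Janus kinase gene *Tyk2*, with a log2 fold change of 0.12. None of them was called by edgeR or DESeq2.

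**Figure D1:**
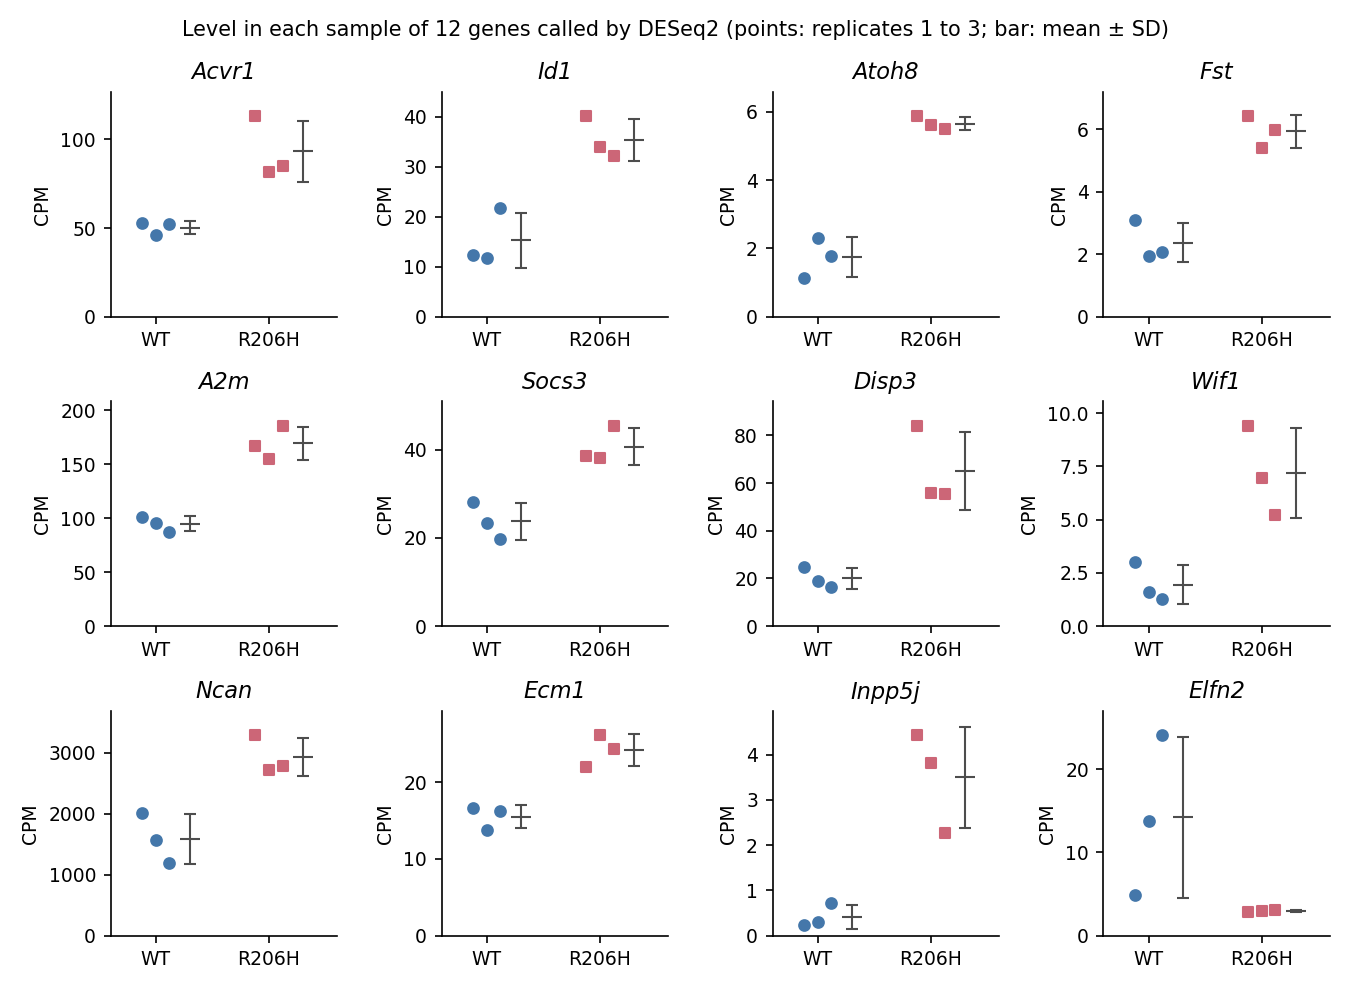
Level of 12 of the 26 genes called by DESeq2, in CPM on linear axes that start at 0, for replicates 1 to 3 of *ACVR1* WT (circles) and *ACVR1* R206H (squares), with the mean and SD beside the points. In every panel the 2 groups do not overlap, from *Ecm1*, where the nearest samples differ by 1.33 times, to *Inpp5j*, where they differ by 3.12 times, and *Elfn2* is the one that was lower with *ACVR1* R206H.

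Some of the 26 genes encode matrix or secreted proteins. They are set side by side here after the calls were seen, and no list of such genes was tested. *Ncan*, which encodes neurocan, a chondroitin sulfate proteoglycan of brain matrix, had 2012, 1567 and 1194 CPM with *ACVR1* WT and 3287, 2714 and 2781 with *ACVR1* R206H. The log2 fold change was 0.88 (standard error 0.22, DESeq2 adjusted p = 0.018), and the wild-type samples differed among themselves by more than the mutant ones did. *Ecm1*, *Podn* and *Scube3*, which encode secreted or matrix proteins, had log2 fold changes of 0.64, 0.78 and 1.18. *Wif1*, which encodes a secreted inhibitor of Wnt ligands, had 3.00, 1.59 and 1.26 CPM against 9.42, 6.95 and 5.20, and *Sod3*, the extracellular superoxide dismutase gene, 33.4, 30.7 and 31.6 CPM against 42.0, 45.2 and 41.0. For *Sod3* the difference was modest, at 0.42 on the log2 scale (standard error 0.075), yet the spread within each group was narrow.

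The remaining calls were membrane, signaling and metabolic genes. *Disp3*, a transmembrane protein gene of the Patched and Dispatched family (ENSMUSG00000041544, chromosome 4, positions 148240264 to 148287965), had 24.7, 18.9 and 16.4 CPM with *ACVR1* WT and 84.1, 55.8 and 55.3 with *ACVR1* R206H, which made 1.70 on the log2 scale (standard error 0.23, DESeq2 adjusted p = 2.2e-08). *Inpp5j*, an inositol polyphosphate phosphatase gene, had 0.235, 0.308 and 0.725 CPM against 4.44, 3.81 and 2.26. *Aplnr*, the apelin receptor gene, was at 0, 0.205 and 0.676 CPM against 4.24, 2.63 and 3.27, and *Cidea*, which encodes a lipid droplet protein, at 0.282, 0.410 and 1.16 against 4.09, 3.29 and 2.84. These 3 genes were close to undetected with *ACVR1* WT, so that their fold changes rest on few counts. The potassium channel gene *Kcnk13*, the phosphodiesterase gene *Pde11a*, the C2 domain gene *Mctp1* and the small GTPase gene *Diras2* had log2 fold changes of 1.67, 1.95, 1.48 and 1.504, and *Selenom*, a selenoprotein gene, of 1.15. *Ndrg4*, *Tmem108*, *Cpne2* and *Pcx*, the pyruvate carboxylase gene, had smaller ones, of 0.50, 0.73, 0.55 and 0.46.

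*Elfn2*, a leucine-rich repeat protein gene of synapses (chromosome 15, positions 78667331 to 78718771), was the one gene called lower. It had 4.83, 13.7 and 24.1 CPM with *ACVR1* WT and 2.89, 2.98 and 3.03 with *ACVR1* R206H, which made -2.26 on the log2 scale (standard error 0.55, DESeq2 adjusted p = 0.012). The mutant samples were all but equal, while the wild-type ones ranged widely. The other genes that stood apart on the lower side with the smallest p values, none of them called by edgeR or DESeq2, differed far less. *Romo1*, a mitochondrial protein gene, had 33.2, 35.2 and 35.6 CPM against 28.8, 27.6 and 27.3, and *Etv1*, an ETS factor gene, 104.8, 107 and 96.5 CPM against 87.3, 80.0 and 85.2. *Lima1*, *Tub*, *Tmem17*, *Deaf1* and *Bri3bp* had log2 fold changes of -0.53, -0.56, -0.49, -0.28 and -0.19. Of the first 12 genes on this side, 4 carry only a clone or model name and are not described.

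Of 24 mesenchymal genes, 18 were tested, with a median log2 fold change of 0.27, 14 positive and 4 negative, and 0 called by either tool (4 were among the 534 genes named above). The median was 0.64 without wild-type replicate 1 and 0.14 with the cell cycle mean as a covariate. The groups stood apart for 4, all higher (4.8% of all genes). *Cd44*, a hyaluronan receptor gene, had 143, 81.1 and 101 CPM against 186, 158.5 and 163.5. *L1cam*, a cell adhesion gene, had 0.986, 0.717 and 0.435 CPM against 2.39, 3.35 and 1.78, and *Thbs1*, the thrombospondin gene, 1.596, 1.23 and 0.918 against 2.44, 2.11 and 2.50. *Vim*, named after its values were seen, had 1975, 1411 and 1504 CPM against 2065, 2092 and 2172. For *Cd44* and *Vim* wild-type replicate 1 was the highest of its group and the nearest to the mutant samples.

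The spread between the wild-type replicates was the largest source of variation in these 6 samples. On the first principal component of log2 CPM (72.1% of the variance) the wild-type samples lay at -42.9, 29.9 and 56.7 and the mutant samples at -20.2, -5.57 and -17.9, inside the range of the wild-type ones. The groups separated on the second component (9.83%), at -21.8, -5.35 and -5.79 against 11.1, 13.6 and 8.34. Of the sum of squares within groups, wild-type replicate 1 held 47.2%, replicate 3 28.3% and replicate 2 9.27%, and each mutant sample 4.74 to 5.45%. The biological coefficient of variation was 0.275 for *ACVR1* WT and 0.0594 for *ACVR1* R206H. Within *ACVR1* WT it was 0.12 over replicates 2 and 3, 0.366 over 1 and 3, and 0.273 over 1 and 2. With H3.1K27M the corresponding groups had 0.0505 and 0.0453, so that the wide spread was found in 1 of the 4 groups.

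**Figure D2:**
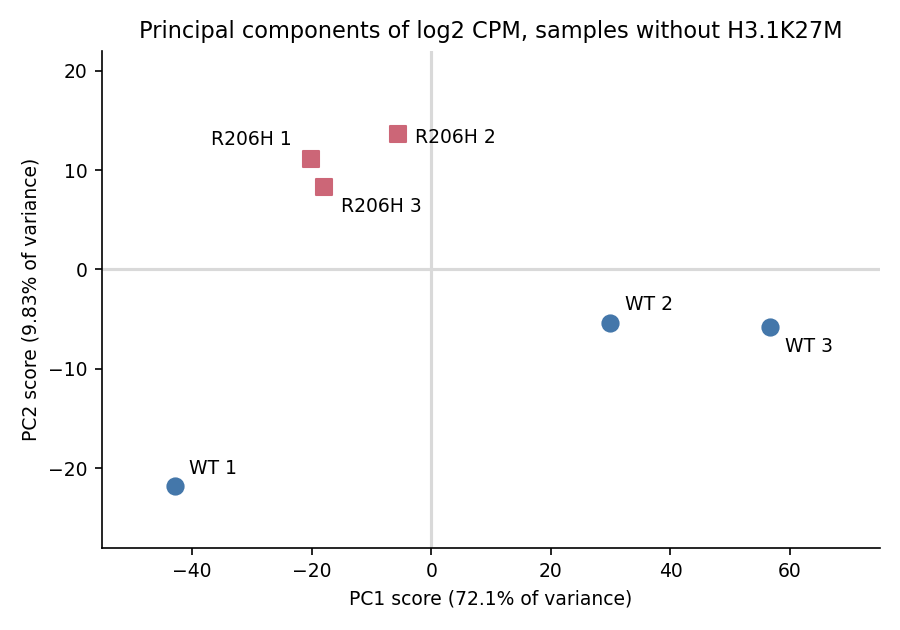
First against second principal component of log2 CPM over the 15066 genes tested, for *ACVR1* WT (circles) and *ACVR1* R206H (squares), labelled by replicate. The mutant samples lie together between wild-type replicate 1, at -42.9, and replicates 2 and 3, at 29.9 and 56.7, along the first component.

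This order recurred gene by gene. In 2546 genes (16.9%) wild-type replicate 1 lay above all mutant samples and replicates 2 and 3 below all of them, and in 2400 (15.9%) the order was the reverse. The range of log2 CPM over the wild-type replicates was larger than the difference between the group means in 13825 genes (91.8%), and the range over the mutant replicates in 10043 (66.7%).

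Of the gene lists, those of the cell cycle had the widest spread over the wild-type replicates. Of the 43 S phase genes 40, and of the 54 G2/M phase genes all 54, had replicate 1 above, and replicates 2 and 3 below, all mutant samples. The S phase genes summed to 3145, 1259 and 976 CPM with *ACVR1* WT and to 2313, 2032 and 2312 with *ACVR1* R206H, and the G2/M genes to 9169, 4175 and 3050.0 against 7076, 5974 and 6908. The mutant samples were alike, and the wild-type samples bracketed them on both sides. The replication helicase subunit gene *Mcm5* had 148, 37.8 and 15.4 CPM against 99.7, 84.0 and 104, and *Clspn*, which encodes the replication checkpoint protein claspin, 53.7, 12.6 and 5.604 against 36.5, 28.0 and 34.8. The mitotic cyclin gene *Ccnb2* had 77.7, 16.9 and 6.52 CPM against 44.9, 35.4 and 48.5. In the median gene the SD of log2 CPM was 1.10 over the wild-type and 0.122 over the mutant replicates for S phase, and 1.51 and 0.186 for G2/M phase, beside 0.211 and 0.0918 over all genes.

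With all 6 samples the cell cycle lists thus had positive log2 fold changes (41 of 43 and 54 of 54, medians 0.37 and 0.42) and not a single gene called by edgeR or DESeq2, nor one among the 534. Without wild-type replicate 1 the medians were 1.34 and 1.62, and with the cell cycle mean as a covariate, which is made from these genes, -0.0033 and 0.0028. Without wild-type replicate 3 the log2 fold changes of *Clspn* and *Ccnb2* turned to -0.00171 and -0.141. *Psrc1* and *Ncapd2*, both with mitotic roles, had log2 fold changes of 0.60 (standard error 0.47) and 0.43 (standard error 0.50). The groups stood apart for 1 of the 97 genes, a share below the 9.26% of all genes: *Mrpl36*, the gene of a mitochondrial ribosomal protein that the S phase list includes, at 36.5, 34.4 and 32.8 CPM against 31.1, 30.1 and 32.3. In the pair of groups with H3.1K27M, which shares no sample with this one, the sign was the opposite, with 30 S phase and 41 G2/M genes lower and 0 higher with *ACVR1* R206H at an adjusted p under 0.05 in edgeR's test (20.3% of all genes tested there were called, 8.95% lower and 11.4% higher). The difference between the pairs was tested gene by gene, and 0 of the 97 genes passed the interaction test in edgeR.

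Glial genes ran the other way over the wild-type replicates. Of 24 astrocyte genes tested, 16 had replicate 1 lowest and replicates 2 and 3 above all mutant samples, and 1 had the reverse order. Their summed level was 13925, 28479 and 37125 CPM with *ACVR1* WT and 19767, 22692 and 21150 with *ACVR1* R206H. *Gfap*, the intermediate filament gene of astrocytes, had 342.5, 1402 and 2643 CPM against 854, 1126 and 1096, and the water channel gene *Aqp4* 779.9, 3510 and 5774 against 1927, 2446 and 2074. The gap junction gene *Gja1* had 299, 993 and 1572 CPM against 523, 648 and 602, and *Cst3*, the cystatin C gene, 748, 2032 and 2488 against 942, 1249 and 1115. The median SD of log2 CPM was 0.389 over the wild-type and 0.0922 over the mutant replicates. The median log2 fold change was -0.17, -0.32 without wild-type replicate 1, and 0.16, thus turned, with the cell cycle mean as a covariate. With all 6 samples and no covariate, edgeR and DESeq2 called 0 genes, and 0 were at an unadjusted p under 0.05 in edgeR. Of the 24, 2 stood apart, a share no larger than the 9.26% of all genes, both higher. They were *Aldoc*, an aldolase gene (1303, 1842 and 1622 CPM against 1842, 1987 and 2006, where the nearest samples hardly differed), and *Mt2*, a metallothionein gene (3.99, 3.33 and 3.53 against 4.54, 4.07 and 4.53).

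Several genes of differentiating oligodendrocytes, picked for a small p or a wide wild-type range, separated replicates 2 and 3 of *ACVR1* WT from the other 4 samples. The whole lineage list did so less, with sums of 4415, 5373 and 5515 CPM against 4184, 4226 and 4300. Of its 23 genes tested, 8 had replicate 1 lowest and replicates 2 and 3 above all mutant samples (15.9% of all genes). The reverse order was found in 2 (16.9% of all genes). *Gpr17*, a receptor gene of committed oligodendrocyte precursors, had 36.1, 713 and 1258 CPM with *ACVR1* WT and 68.0, 102 and 90.8 with *ACVR1* R206H. *Enpp6*, a marker of newly forming oligodendrocytes, had 1.08, 12.3 and 36.2 CPM against 1.30, 1.24 and 0.963, and *Myrf*, the myelin regulatory factor gene, 4.18, 12.9 and 25.4 against 5.03, 4.32 and 4.14. In these genes wild-type replicate 1 lay among or beside the mutant samples, so that the groups overlapped. *Bcas1*, a gene of early myelinating cells, had 71.4, 167 and 272 CPM against 71.4, 72.4 and 67.3. Of 23 oligodendrocyte lineage genes tested, 17 had a negative log2 fold change (median -0.36, which was -0.58 without wild-type replicate 1 and -0.091 with the cell cycle mean as a covariate), 5 of them at an unadjusted p under 0.05, 0 were called by either tool and 0 stood apart. The neuroblast gene *Dcx* behaved like *Gpr17*, at 10.6, 82.4 and 118 CPM against 13.9, 19.0 and 16.4.

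**Figure D3:**
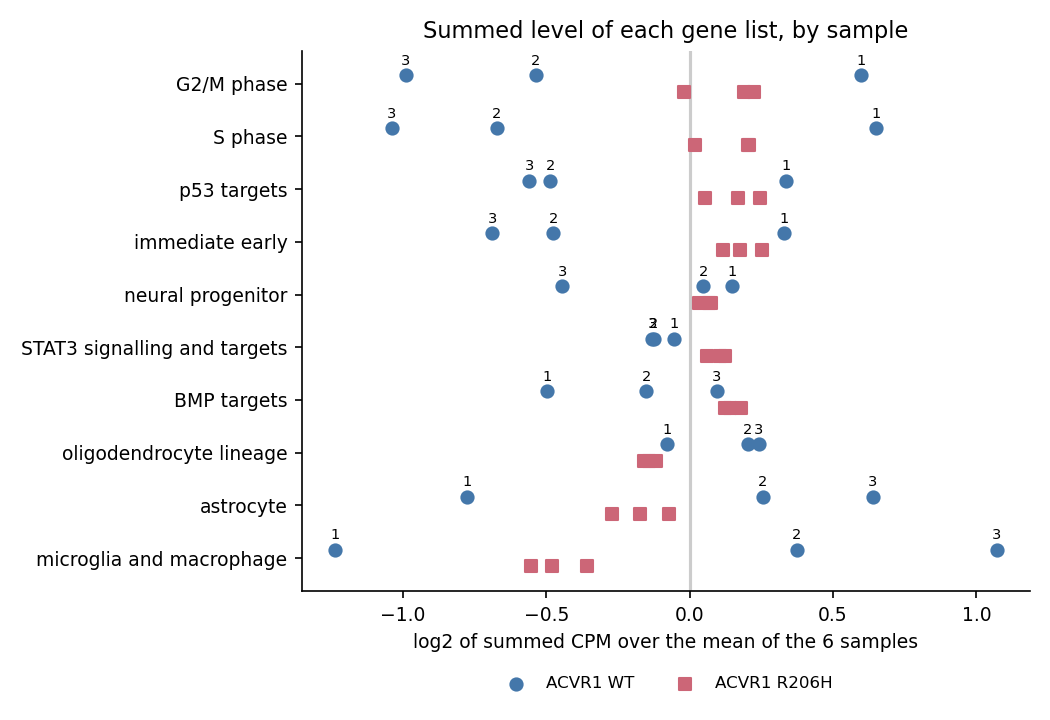
Summed CPM of 10 gene lists in each sample, as the log2 ratio to the mean of the 6 samples, for *ACVR1* WT (circles, numbered by replicate) and *ACVR1* R206H (squares). For both cell cycle lists wild-type replicate 1 lies to the right and replicates 2 and 3 to the left of all mutant samples, for astrocytes and microglia the order is turned round, and for the BMP and STAT3 lists all mutant samples lie to the right of all wild-type samples.

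The p53 targets had the order of the cell cycle genes. All 12 p53 target genes tested had a positive log2 fold change (median 0.31, which was 0.68 without wild-type replicate 1 and 0.078 with the cell cycle mean as a covariate). In 11 of them replicate 1 lay above and replicates 2 and 3 below the mutant samples. None was called by edgeR or DESeq2 or at an unadjusted p under 0.05 in edgeR. *Trp53* had 125, 81.7 and 75.7 CPM against 107, 101 and 114, so its transcript was present in all 6 samples, and *Cdkn1a*, the p21 gene, 289, 112 and 118 against 252, 215 and 242. *Mdm2* and *Ccng1* had log2 fold changes of 0.27 and 0.38. Of 20 immediate early and growth factor response genes, 2 stood apart, near the share of 9.26% over all genes, *Egr1* (119, 85.5 and 60.7 CPM against 127, 153.5 and 149) and *Fosb* (2.11, 2.46 and 2.51 against 3.34, 4.63 and 3.56), and 9 had replicate 1 above and replicates 2 and 3 below the mutant samples (16.9% of all genes). Of 15 progenitor genes none stood apart, and the receptor gene *Notch1* had a log2 fold change of 0.41. Microglial markers were low and followed the glial order: their sum over 14 genes was 12.7, 38.8 and 63.0 CPM with *ACVR1* WT and 20.4, 21.5 and 23.4 with *ACVR1* R206H, with *C1qc* at 1.13, 6.46 and 9.76 against 1.74, 2.63 and 3.03 and the defining marker *Cx3cr1* at 0.349 to 1.84 CPM. Their part in the spread was not tested. Of 16 neuronal genes tested 7 had a positive and 9 a negative log2 fold change, of 16 hypoxia and glycolysis genes 7 and 9, and of 16 interferon genes 6 and 10, with 0 called in each by edgeR or DESeq2 and 1, 2 and 0 at an unadjusted p under 0.05. The hypoxia genes *Car9* and *Ankrd37* stood apart on the lower side (4.46% of all genes), both at levels that rest on few counts. *Car9* had 0.422, 0.564 and 1.79 CPM against 0.299, 0.257 and 0.289. *Ankrd37* had 0.610, 0.820 and 0.918 CPM against 0.249, 0.412 and 0.578.

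**Figure D4:**
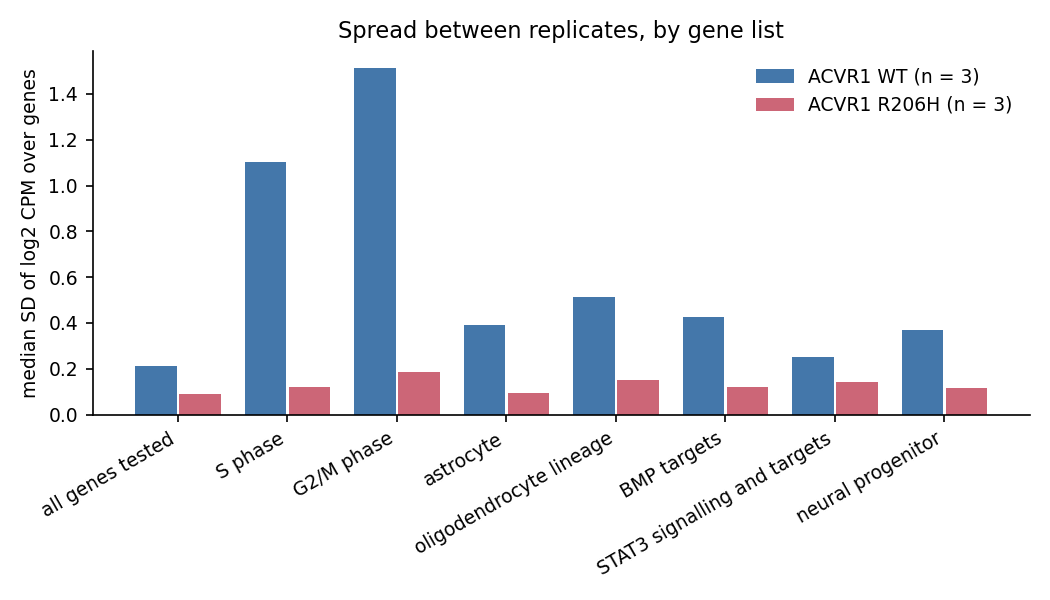
Median over genes of the SD of log2 CPM between the 3 replicates of *ACVR1* WT and the 3 of *ACVR1* R206H, for all genes tested and 7 gene lists, on an axis that starts at 0. The wild-type bar is the taller one in each list, from 0.250 against 0.144 for STAT3 genes to 1.51 against 0.186 for G2/M phase genes.

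Leaving out each sample in turn showed how far the test rested on this spread. Without wild-type replicate 1, edgeR called 3484 genes (23.1%), 1816 higher (12.1%) and 1668 lower (11.1%), and without any of the other 5 samples it called 0, with 218 to 353 genes at an unadjusted p under 0.05. No label sets this replicate apart. Of the 1816 higher genes, replicate 1 lay above all mutant samples in 1258, within their range in 324 and below all of them in 234. Of the 1668 lower genes it lay below all mutant samples in 1259, within their range in 303 and above all in 106. In most of the genes called, the sample left out thus lay beyond the mutant samples on the far side. They included 38 of 43 S phase and 51 of 54 G2/M genes, all higher, 14 of 23 oligodendrocyte lineage genes, all lower, 15 of 24 astrocyte genes lower and 1 higher, and 12 of 12 p53 target genes, all higher. All 26 genes called by DESeq2 on the 6 samples were called in the same direction. *Id4* was among the lower genes, with a log2 fold change of -0.80 (edgeR adjusted p = 0.016), while *Id3* and *Id1* were higher, at 0.51 and 1.08 (adjusted p = 0.025 and 0.013).

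Giving each sample a weight from its own spread (limma voom with sample quality weights) set replicate 1 at 0.123, replicate 3 at 0.501 and replicate 2 at 3.35, against 1.48 to 1.95 for the mutant samples, and called 3683 genes (24.4%), 2035 higher and 1648 lower. The mean log2 CPM of the cell cycle lists as a covariate gave 81 genes in edgeR, 76 higher and 5 lower, of which 23 were among the 26, and the mean of the oligodendrocyte lineage list gave 236, 196 higher and 40 lower, of which 25 were among them. A fit of all 12 samples, which takes its spread from all 4 groups, called 11 genes, all higher and all among the 26: *A2m*, *Atoh8*, *Diras2*, *Disp3*, *Ecm1*, *Fst*, *Kcnk13*, *Mctp1*, *Ndrg4*, *Pde11a* and *Tmem108*. *Id1* and *Socs3* were not among these 11. With the cell cycle covariate the log2 fold change turned from -0.34 to 0.81 for *Id4*, from -0.51 to 0.84 for *Gfap*, from -0.64 to 0.68 for *Aqp4* and from -0.69 to 0.36 for *Gja1*. *Cst3*, *C1qc*, *Ccnb2*, *Nes*, *Trp53* and *Cspg4* turned as well, to values between -0.10 for *Cspg4* and 0.12 for *C1qc*.

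The samples with H3.1K27M share none of the 6 samples described so far and give a separate reading of the same genes. Of the 25 genes called higher without H3.1K27M, 24 were tested there, and edgeR called 23 of them higher with *ACVR1* R206H (95.8%, beside 11.4% of all genes tested in both pairs). The exception was *Sod3*, with a log2 fold change of 0.01 (standard error 0.057). *Elfn2* was lower there too, by a log2 fold change of -0.76 (edgeR adjusted p = 0.001). Of the 712 tested of the 723 genes that stood apart on the higher side, 284 (39.9%) were called higher and 18 lower with H3.1K27M. Of the 663 tested of the 672 on the lower side 95 (14.3%, beside 9.41%) were called lower and 11 higher. Among the genes called without replicate 1 the directions were mixed: of 1808 higher genes tested 396 were called higher and 411 lower with H3.1K27M, and of 1597 lower genes 246 lower and 229 higher.

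Side by side, the log2 fold change without and with H3.1K27M was 0.84 and 0.59 for *A2m*, 0.78 and 0.57 for *Socs3*, 1.32 and 1.06 for *Fst*, 1.48 and 1.48 for *Mctp1*, 1.95 and 1.78 for *Pde11a*, 1.70 and 2.67 for *Disp3*, 1.70 and 3.38 for *Atoh8*, 1.88 and 2.97 for *Wif1*, and 3.03 and 5.22 for *Inpp5j*. The interaction of R206H with H3.1K27M passed an adjusted p of 0.05 in edgeR for none of the 26, and for 11 of 15445 genes (0.0712%) in all. Among the 26, the smallest adjusted p values were those of *Id1* and *Atoh8* (0.063 and 0.074), with interactions of 1.79 and 1.68. DESeq2 gave 1.5e-06 and 5.5e-06 for these, and it also passed *Selenom* (adjusted p = 0.030) and *Sod3* (adjusted p = 0.037), the latter with the smaller value in the presence of H3.1K27M.

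**Figure D5:**
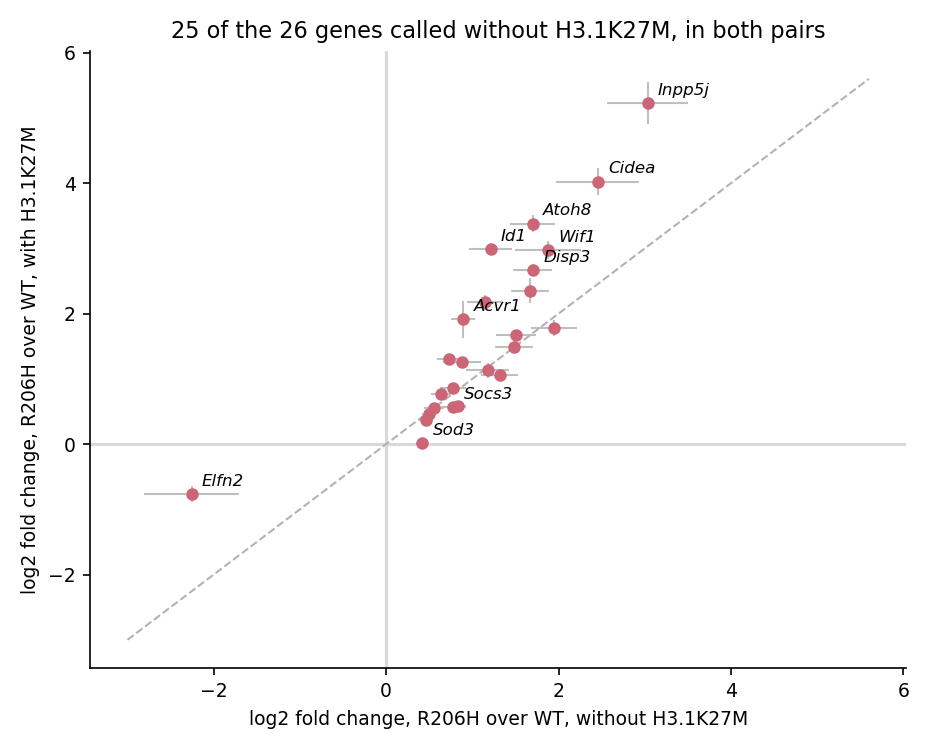
Log2 fold change of *ACVR1* R206H over *ACVR1* WT without H3.1K27M (horizontal axis) against that with H3.1K27M (vertical axis), for the 25 of the 26 genes called by DESeq2 that were tested in both pairs, with standard errors from edgeR and the line of equal values dashed. All but *Sod3*, at 0.42 and 0.01, lie away from 0 in the same direction on both axes, with *Inpp5j* farthest at 3.03 and 5.22.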

How the data were processed

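RNAseq counts per gene of 6 samples, 3 with *ACVR1* WT and 3 with *ACVR1* R206H, were analysed, and the 6 samples with H3.1K27M where named. In Galaxy, the authors mapped read pairs to the mouse genome (mm10) using RNA-STAR (STAR 2.6.0b-1 in the submitters' processing notes) and used HTSeq-count with Ensembl annotation, without strand and without reads of several matches, and the deposited counts are neither normalized nor pooled. Overlapping and antisense genes therefore cannot be told apart.

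Of 54532 genes, 54409 had a symbol in the tables used, and a symbol with several identifiers was read from the most abundant. Genes whose normalized counts averaged 10 or more over the samples were tested with edgeR 4.0.16 (quasi-likelihood F test, TMM), adjusted by Benjamini-Hochberg over all genes, at a threshold of 0.05, in R 4.3.3. Log2 CPM has a prior count of 2. DESeq2 1.42.0, the authors' tool, and limma 3.58.1 (voom with sample quality weights) were alternatives. Samples were grouped by their labels, and no sample was left out of the main fit. Each sample had 19315020 counts or more. The edgeR, DESeq2, voom, block and interaction fits were first tested on simulated data with known changes. Those data gave all samples an equal spread, so they do not show how the fits behave with the unequal spread found here. The interaction was fitted on all 12 samples.

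The genes named were taken from a rule that covers *Acvr1*, *Id1* to *Id4*, *Socs3* and *Atoh8*, the genes DESeq2 called, the 12 higher and 8 lower genes with the smallest p among those whose groups stood apart, and from each gene list those with the smallest p or, for cell cycle and glial lists, the widest wild-type range. The members and the lists were chosen with earlier results of these data known. Many list members that this rule takes are not reported here.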

Additional observations from a re-analysis of the deposited data

Results flagged for a closer look

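The effect of *ACVR1* R206H on *Id3* and *Id2* differed between the backgrounds with and without H3.1K27M. For *Id3*, a BMP target gene, the log2 fold change was 0.67 without and 2.99 with H3.1K27M, an interaction of 2.31 (standard error 0.23, edgeR adjusted p = 0.0059), and for *Id2* it was 0.40 and 2.15, an interaction of 1.75 (standard error 0.18, edgeR adjusted p = 0.0059). Under 9 alternatives chosen for these genes after seeing the data, among them leaving out each of the 6 samples without H3.1K27M, the interaction of *Id3* ran from 2.08 to 2.48 and that of *Id2* from 1.57 to 1.89, each past the threshold of 0.05. The extremes came without wild-type replicate 3 and without wild-type replicate 1. The other genes past the threshold of this test were *Stk32b*, *Nptx1*, *Adm*, *Sstr2*, *Lcat*, *Hs3st3b1*, *Cxxc5*, *Wnt5a* and *Parvb*.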

How the results depend on the processing

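The main test called 0 genes. It also called 0 with DESeq2 size factors (529 at an unadjusted p under 0.05), with no filter (838 of 28538 genes), with 10 or more counts in every sample (481), with robust estimation (532) and with the replicate number as a block (501). DESeq2 called 26, DESeq2 with the replicate block 14 (13 of them among the 26), the fit of all 12 samples 11, the cell cycle covariate 81, the oligodendrocyte lineage covariate 236 and voom with sample quality weights 3683. Leaving out 1 sample gave 0 to 3484, and DESeq2 without wild-type replicate 1, an alternative chosen after seeing the data, 3263. The genes whose groups did not overlap numbered 2151 with no filter and 8285 without wild-type replicate 1, where 3 samples are set against 2. The interaction was past the threshold in 96 genes with DESeq2, 18 with no filter, 2 with the replicate block and 3 to 4115 with 1 sample left out, the highest without wild-type replicate 1 and 3 to 7 otherwise.

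Whether the replicate numbers pair the samples cannot be told from 3 samples per group. The departures from the group mean of a wild-type and a mutant sample with one number correlated at 0.278, 0.347 and -0.117. Of the 3 mutant samples, 1 correlated best with the wild-type sample of its own number.

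Members called per list, by voom and as the range over left-out samples, were 37 and 0 to 38 for S phase, 48 and 0 to 51 for G2/M phase, 11 and 0 to 16 for astrocytes, 13 and 0 to 14 for the oligodendrocyte lineage, 7 and 0 to 5 for neurons, 7 and 0 to 7 for progenitors, 11 and 0 to 10 for BMP targets (DESeq2 3), 7 and 0 to 6 for receptors and SMADs (DESeq2 1), 7 and 0 to 6 for STAT3 (DESeq2 2), 9 and 0 to 9 for mesenchymal genes, 12 and 0 to 12 for p53 targets, 11 and 0 to 9 for immediate early genes, 7 and 0 to 5 for hypoxia, 6 and 0 to 7 for microglia, and 1 and 0 to 1 each for endothelium and ependyma. For interferon genes the range was 0 to 1. Over the left-out samples, the highest count in each of these came without wild-type replicate 1.

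With 1 wild-type replicate left out, the median SD of log2 CPM ran from 0.0998 to 0.236 over all genes, from 0.369 to 1.49 for S phase, from 0.827 to 2.1 for G2/M phase and from 0.171 to 0.525 for astrocyte genes. With 1 mutant replicate left out it ran from 0.0489 to 0.143 for S phase, from 0.0514 to 0.238 for G2/M phase and from 0.0442 to 0.144 for the oligodendrocyte lineage.

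Without wild-type replicate 3 the log2 fold change turned for *Id4*, *Clspn*, *Ccnb2*, *Gfap*, *Aqp4* and *Nes*. Without that sample and without wild-type replicate 1, the ends of the range over left-out samples, it was 0.16 and -0.796 for *Id4*, -0.00171 and 1.87 for *Clspn*, -0.141 and 1.88 for *Ccnb2*, 0.233 and -0.98 for *Gfap*, 0.00301 and -1.11 for *Aqp4*, and -0.0754 and 1.32 for *Nes*. That of *Sox2*, near 0 throughout, turned in the fit of all 12 samples (-0.00372), with voom (-0.0635), without wild-type replicate 1 (-0.05) and without mutant replicate 2 (-0.016), with 0.0455 as its highest value with 1 sample left out. The causes were not tested. The depth was alike in all samples, and the comparison rests on 3 replicates per group with unequal spread.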
